A study of Homo sapiens with 4 samples.

Results

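The tubulin isotype genes were followed across 4 colorectal cancer cell lines. The 10 genes were chosen by symbol, namely TUBA1A, TUBA1B, TUBA1C and TUBA4A (alpha-tubulins), TUBB, TUBB2A, TUBB2B, TUBB3 and TUBB6 (beta-tubulins) and TUBG1 (gamma-tubulin). They take 11 of the 57746 rows of the expression table, because TUBB3 is listed as TUBB3_1 and TUBB3_2 and under no other name. What tells these rows apart is not stated. All 11 rows reached 1 RPKM (reads scaled to gene length and library size) in at least 2 lines, and 10 did so in every line. TUBB2B was the exception and reached that level only in SA and SPH. The genes were picked with their values in these libraries known, so their levels and differences are a description and carry no test.

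Total RNA was sequenced from DLD1, an established human colorectal cancer line labelled epithelial and parental, and from 3 lines derived from it. SA came from colonies in soft agar and SPH from colonospheres, and both are labelled mesenchymal. METS, grown from a metastasis that a xenograft formed in the lung, is labelled epithelial again. All 4 lines were kept in one serum-containing medium, and no genetic change or drug is named for any of them. Each line is 1 library, so no difference between lines has a replicate check. Whether a derivative line is 1 clone, and in which host the xenograft grew, is not stated in the labels.

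Microtubules are hollow polymers of dimers, each made of an alpha-tubulin and a beta-tubulin, and gamma-tubulin sits in the ring complex that starts their growth. Humans have several genes of each kind, whose proteins differ mainly in the acidic tail at the end of the chain, where enzymes add and remove modifications and where motors and other proteins bind. Most dividing cells use TUBB, TUBB4B, TUBA1B and TUBA1C. TUBB3, TUBB2B and TUBA1A are best known from neurons, and TUBB3 is also studied in carcinomas in connection with drugs that bind microtubules. TUBB6 is a widely expressed beta-tubulin, and TUBA4A is an alpha-tubulin whose coding sequence lacks the final tyrosine that the other main alpha-tubulins carry.

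Several members are near-identical copies, which bears on every value below. TUBB2A and TUBB2B differed at 24 of 1335 coding bases (98.2% identity, GENCODE 29 transcripts) and shared an unbroken identical run of 725 coding bases. Of the 50-base windows in the TUBB2B transcript, 47.3% also occur in TUBB2A, and 60.3% of those of TUBB2A occur in TUBB2B. The 60 coding bases from position 121 of the coding sequence, where the copies differ most, are shown because reads from such stretches can be told apart. Capitals mark the 7 bases that differ.
TUBB2B: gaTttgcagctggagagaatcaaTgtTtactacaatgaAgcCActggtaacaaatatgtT
TUBB2A: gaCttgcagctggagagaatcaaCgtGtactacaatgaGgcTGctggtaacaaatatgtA

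The last 60 coding bases, which encode the acidic tail, differed between the copies at 1 base, in capitals. They are shown because this is the stretch in which isotypes usually differ.
TUBB2B: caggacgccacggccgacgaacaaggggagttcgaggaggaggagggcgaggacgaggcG
TUBB2A: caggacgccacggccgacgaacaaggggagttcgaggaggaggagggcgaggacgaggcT

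TUBB3 and TUBB6 have other tails, shown for comparison in lower case with nothing marked.
TUBB3: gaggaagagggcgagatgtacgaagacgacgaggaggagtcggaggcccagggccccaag
TUBB6: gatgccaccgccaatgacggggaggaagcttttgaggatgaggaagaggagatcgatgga

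Among the alpha-tubulins, TUBA1A was 97.2% identical to TUBA1B and 95.9% to TUBA1C over the coding bases, and TUBA1B was 96.8% identical to TUBA1C.

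Counting every tubulin transcript together, windows found in another tubulin made up 65.5% of TUBB2A, 62.7% of TUBA1B, 52.2% of TUBB2B, 41.7% of TUBA1A, 29.9% of TUBG1, 25.1% of TUBA1C and 18.2% of TUBB. They made up 8.90% of TUBB3, 5.25% of TUBA4A and 0.993% of TUBB6. Only other genes with tubulin names were compared, so sequence that TUBB3_1 and TUBB3_2 may share is not counted. How reads that match several genes were counted, and how long the reads were, is not given. The levels of TUBB2A, TUBB2B, TUBA1A and TUBA1B are therefore uncertain to the extent that such reads were split or dropped, and its part in the differences between lines was not tested.

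The 4 libraries were alike in depth. Between 10920 and 11238 genes reached 1 RPKM, and a transcript of 1 kb at 1 RPKM corresponded to about 48.3 to 53.8 reads, estimated from the step size of low values. The labels were checked on VIM and on 8 epithelial genes of the colon. EPCAM stood at 212 RPKM in DLD1, 222 in SA and 231 in SPH, with 263 in METS, and CDH1, the epithelial cadherin, at 115, 94.5, 97.3 and 103. VIM, the mesenchymal intermediate filament, stood at 12.5 in SA and 12.2 in SPH against 0.18 in DLD1 and 0.22 in METS. The keratins KRT8, KRT18 and KRT19 were lower in SA and SPH than in DLD1 and METS (KRT8 at 565 and 587 RPKM against 817 and 1084). KRT20 stood at 21.9 RPKM in DLD1 and at 4.06, 3.18 and 0.50 in SA, SPH and METS. Over the 8 genes the median difference from DLD1 in log2(RPKM + 1) was -0.40 for SA, -0.21 for SPH and 0.33 for METS, and 0 passed the class comparison described below (limma-trend, 3 at an unadjusted p under 0.05, all lower in the mesenchymal lines).

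TUBA1B was the most abundant alpha-tubulin message in every line, at 716 RPKM in DLD1, 672 in SA and 638 in SPH, with 455 in METS. TUBA1C came next with 270, 239, 229 and 203 RPKM. Both were highest in DLD1 and lowest in METS, with METS at 0.635 and 0.753 of the DLD1 level and SA and SPH at 0.848 to 0.938 of it. TUBA4A stood at 40.3 RPKM in DLD1, 45.2 in SA and 43.7 in SPH, with 26.8 in METS. It was higher in both mesenchymal lines than in both epithelial lines, but the gap between DLD1 and METS (log2 difference -0.57) was wider than that between DLD1 and SA (0.16). Here and below, log2 differences are of log2(RPKM + 1), a scale that shrinks the change of weakly expressed genes. In bulk RNA, fewer cells that express a gene and less of its RNA per cell cannot be told apart.

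TUBA1A had a pattern of its own among the alpha-tubulins. Its level was 5.71 RPKM in DLD1, 13.6 in SA and 15.6 in SPH, with 14.1 in METS. DLD1 alone was low, and all 3 derived lines were high, the epithelial METS among them. Counting intervals (95%, exact Poisson, from about 1051 to 2823 reads) ran from 5.37 to 6.07 RPKM in DLD1, from 13.0 to 14.1 in SA, from 13.5 to 14.6 in METS and from 15.1 to 16.2 in SPH, so SA and METS were not separated by counting error and the other steps in the order were. Such intervals cover counting error alone and say nothing of the spread between cultures. Against DLD1 the log2 difference was 1.12 in SA, 1.31 in SPH and 1.17 in METS, at percentile 99.7 of all genes in each comparison. All 3 comparisons share the DLD1 library. With a pseudocount of 5 in place of 1 the differences were 0.79, 0.95 and 0.83. TUBA1A was the only one of the 11 rows lowest in DLD1, where 24.3% of 11262 genes were.

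TUBA1B, its closest copy, was highest in DLD1, the line in which TUBA1A was lowest. The gap in TUBA1B between DLD1 and SA (716 against 672 RPKM) was larger in RPKM than the whole TUBA1A level. TUBA1A made up 0.553% of the summed alpha-tubulin RPKM in DLD1, 1.40% in SA and 1.69% in SPH, with 2.01% in METS.

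**Figure D1:**
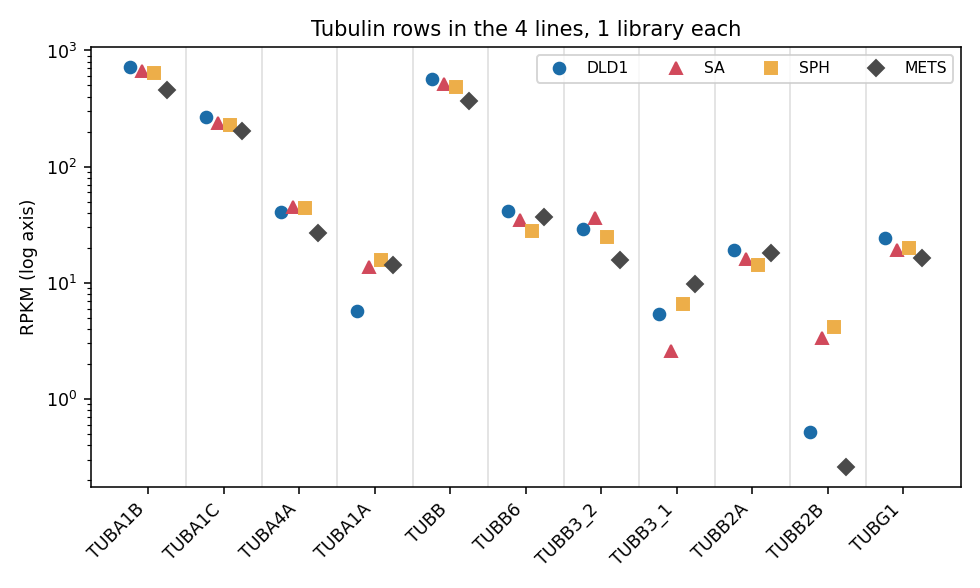
Level of each tubulin row in RPKM on a log axis, with 1 point per line (circle DLD1, triangle SA, square SPH, diamond METS), each 1 library with no error bar. TUBA1A is low in DLD1 alone (5.71 RPKM), TUBB2B is high in SA and SPH (3.34 and 4.15), and TUBA1B and TUBB, the highest rows, are lowest in METS (455 and 368).

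TUBB was the most abundant beta-tubulin message, at 564 RPKM in DLD1, 519 in SA and 484 in SPH, with 368 in METS. It was ordered as TUBA1B was, with METS at 0.653 of the DLD1 level. TUBB6 stood at 41.4 RPKM in DLD1, 34.8 in SA and 28.1 in SPH, with 36.9 in METS. It was lower in both mesenchymal lines than in both epithelial lines, with log2 differences from DLD1 of -0.25 in SA, -0.54 in SPH and -0.16 in METS. TUBB6 shares the fewest sequence windows with other tubulins.

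TUBB2B, a beta-tubulin of developing neurons, was the lowest of the 10 genes in every line, with the TUBB3 rows summed, and the one with the widest range. It stood at 0.52 RPKM in DLD1, 3.34 in SA and 4.15 in SPH, with 0.26 in METS. Both mesenchymal lines were high and both epithelial lines low, with no overlap. These levels rest on about 61, 354, 481 and 29 reads, with 95% counting intervals of 0.398 to 0.668 RPKM in DLD1, 3.0 to 3.71 in SA, 3.79 to 4.54 in SPH and 0.174 to 0.373 in METS. No 2 of these intervals overlap. The ratio of RPKM to DLD1 was 6.42 for SA, 7.98 for SPH and 0.50 for METS, and the log2(RPKM + 1) differences were 1.51, 1.76 and -0.27. The values in SA and SPH lie at percentile 99.9 of all genes, and the mean difference between the classes was 1.77. With a pseudocount of 5 in place of 1 the differences in SA and SPH were 0.60 and 0.73.

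TUBB2A, its neighbour on the same strand of chromosome 6, stood at 19.0 RPKM in DLD1, 16.0 in SA and 14.3 in SPH, with 18.0 in METS. It was low where TUBB2B was high, with log2 differences from DLD1 of -0.23 in SA and -0.39 in SPH. This was not particular to the copy, as TUBB6 differed by -0.25 and -0.54. For TUBB2A, the counting intervals of DLD1 (18.1 to 19.9) and METS (17.1 to 18.9) overlapped. Those of SA (15.2 to 16.9) and SPH (13.5 to 15.1) lay below both. From DLD1 to SA, TUBB2B was 2.82 RPKM higher and TUBB2A differed by -2.96 RPKM. From DLD1 to SPH the same values were 3.63 and -4.71 RPKM. The sum of the copies was 19.5 RPKM in DLD1, 19.4 in SA and 18.5 in SPH, with 18.2 in METS, a log2 difference from DLD1 of -0.01, -0.08 and -0.10. TUBB2B thus made up 2.66% of the pair in DLD1, 17.2% in SA and 22.5% in SPH, with 1.43% in METS, within a nearly level sum.

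**Figure D2:**
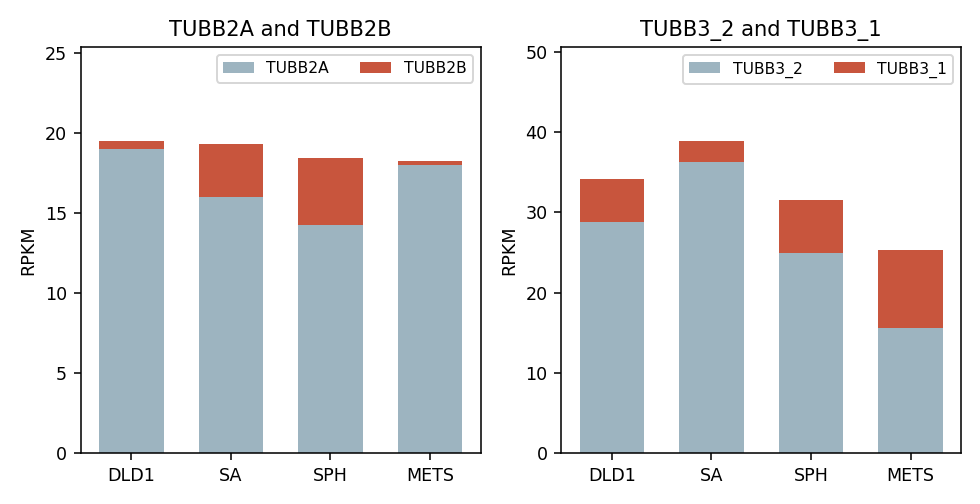
Stacked bars of RPKM in the 4 lines, 1 library each, for TUBB2A with TUBB2B (left) and for the rows TUBB3_2 and TUBB3_1 (right). The left bars have nearly the same height (18.2 to 19.5 RPKM) while the TUBB2B segment runs from 0.26 RPKM in METS to 4.15 in SPH, and the right bars run from 25.4 RPKM in METS to 38.9 in SA.

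TUBB3, the beta-tubulin used as a marker of neurons, has a pair of rows that went different ways. TUBB3_1 stood at 5.40 RPKM in DLD1, 2.58 in SA and 6.55 in SPH, with 9.76 in METS. TUBB3_2 stood at 28.8, 36.3, 25.0 and 15.6 RPKM. The order of the lines in one row is the exact reverse of that in the other, with SA and METS at opposite ends. The log2 differences from DLD1 were -0.84, 0.24 and 0.75 for TUBB3_1 in SA, SPH and METS, and 0.33, -0.20 and -0.84 for TUBB3_2. The rows summed to 34.2 RPKM in DLD1, 38.9 in SA and 31.5 in SPH, with 25.4 in METS, and TUBB3_1 held 15.8%, 6.63%, 20.8% and 38.4% of that sum. Neither the rows nor their sum separated the classes. If both rows stand for overlapping gene models, their reads cannot be separated, and neither the rows nor their sum is then a sure value for TUBB3. SPH and SA, both mesenchymal, differed at least 2-fold in TUBB3_1 (log2 difference 1.08), and in no other of the 11 rows, where 0.262% of 11431 genes did.

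The markers listed here for other cell types were under 1 RPKM in every line, apart from CD14 in METS. All 10 neuronal markers (RBFOX3, SYP, SNAP25, NEFL, NEFM, ELAVL3, ELAVL4, SYT1, STMN2 and INA) stayed under 1 RPKM in every line, with a maximum of 0.22, and 4 were listed at 0 throughout. Their summed level was 0.25 RPKM in DLD1, 0.26 in SA and 0.31 in SPH, with 0.19 in METS. The 8 markers of multiciliated cells, also stayed under 1 RPKM (maximum 0.58, summed level 1.11 to 1.41). So did the 9 fibroblast markers (maximum 0.34), all 5 endothelial markers with a row (maximum 0.26), and 6 of 7 immune markers, with CD14 reaching 1.36 RPKM.

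TUBG1, the main gamma-tubulin gene, stood at 24.2 RPKM in DLD1, 19.3 in SA and 20.1 in SPH, with 16.2 in METS. DLD1 was the highest line and METS the lowest, as for TUBA1B, TUBA1C and TUBB. TUBG2, its copy, stood at 7.89, 7.83, 8.95 and 6.88 RPKM. Together the gamma-tubulin messages reached 0.845 of the DLD1 level in SA, 0.904 in SPH and 0.719 in METS.

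**Figure D3:**
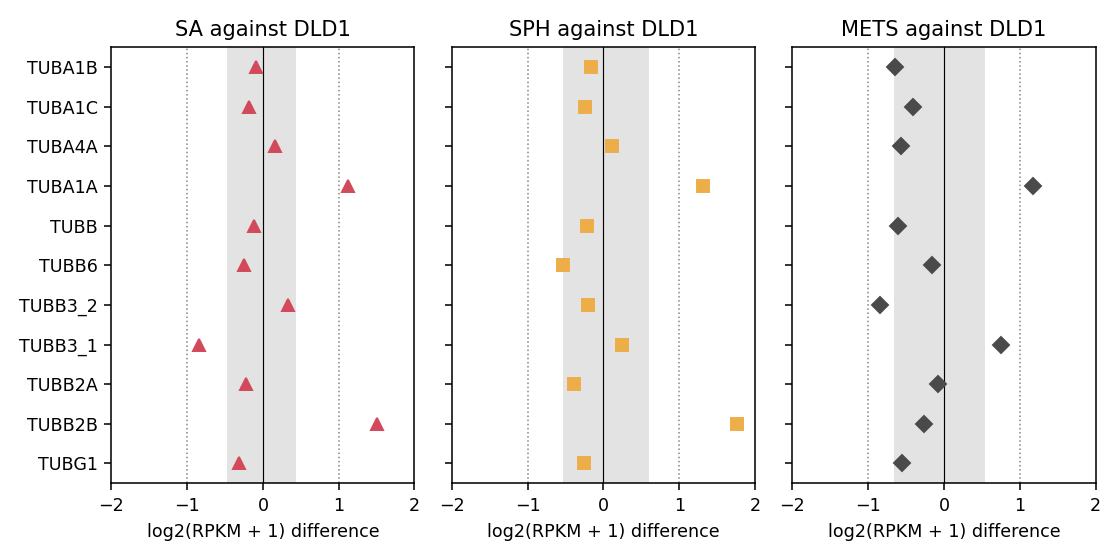
Difference in log2(RPKM + 1) from DLD1 for each tubulin row in SA (left), SPH (middle) and METS (right). The shaded band holds the central 95% of all genes in that comparison and the dotted lines mark 2-fold. TUBB2B and TUBA1A lie beyond 2-fold in SA and SPH, TUBA1A alone does so in METS, and most other rows in METS lie left of 0.

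Set against all genes, a few of the 11 rows differed widely. A majority were lower than in DLD1, by less than 2-fold on the log2(RPKM + 1) scale. In METS, TUBA1B and TUBB stood at percentiles 2.54 and 2.92 of all genes, while TUBA1A and TUBB3_1 were higher than in DLD1. A difference was counted as large when it was at least 2-fold on the log2(RPKM + 1) scale and the higher library reached 1 RPKM. In SA, 2 of 11 rows (TUBB2B and TUBA1A) were at least 2-fold higher and 0 lower, where 0.677% of 11367 genes were past 2-fold in either direction and 0.440% higher. In SPH the same 2 rows were at least 2-fold higher, where 1.26% of 11446 genes were past 2-fold and 0.716% higher. In METS, 1 of 10 rows (TUBA1A) was, where 1.42% of 11275 genes were past 2-fold and 0.523% higher. TUBB2B did not enter the METS comparison, because neither library reached 1 RPKM.

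Any shortfall against DLD1, however small, was seen in 7 of 11 rows in SA (44.4% of all genes), 7 of 11 in SPH (43.6%) and 8 of 10 in METS (54.9%). The median over the rows was -0.12 in SA against 0.03 over all genes, -0.20 in SPH against 0.03, and -0.48 in METS against -0.03. METS was the lowest line for 7 rows (TUBB2B, TUBB3_2, TUBB, TUBA1B, TUBA1C, TUBA4A and TUBG1), as it was for 39.4% of 11262 genes. DLD1 was the highest line for 6 rows (TUBB2A, TUBB6, TUBB, TUBA1B, TUBA1C and TUBG1), against 21.6%. TUBB3_1 was the single row highest in METS, against 23.8%. The classes did not overlap in 4 rows: TUBB2B and TUBA4A were higher in both mesenchymal lines, against 24.7% of genes, and TUBB2A and TUBB6 lower, against 13.1%. In 4 rows (TUBB2B, TUBB3_1, TUBB3_2 and TUBA1A) the highest line was at least 2-fold above the lowest, against 3.57%. These rows were chosen with such values known, so nothing is read from the shares.

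The makeup of the tubulin pool shows how much each member weighs on a per-length scale. Summed over 10 rows, beta-tubulin messages came to 1135 RPKM in DLD1, 1008 in SA and 986 in SPH, with 806 in METS. Alpha-tubulin messages, summed over 9 genes, came to 1032, 969, 927 and 699 RPKM. Both sums were highest in DLD1 and lowest in METS, where they were 0.710 and 0.677 of the DLD1 level. The ratio of alpha to beta stayed between 0.867 (METS) and 0.962 (SA).

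TUBB held 49.7% of the beta sum in DLD1, 51.5% in SA and 49.2% in SPH, with 45.7% in METS. TUBB4B, which is not among the chosen genes, held 41.9%, 39.3%, 42.9% and 44.3%. Both together made up 90.0% to 92.1% in every line. TUBB6 held 3.65%, 3.45%, 2.85% and 4.58%, and the TUBB3 rows together 3.01%, 3.86%, 3.20% and 3.15%. TUBB2B, despite its wide range, held 0.0458% in DLD1, 0.331% in SA and 0.421% in SPH, with 0.0322% in METS. Of the alpha sum, TUBA1B and TUBA1C together held between 93.6% and 95.5%.

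**Figure D4:**
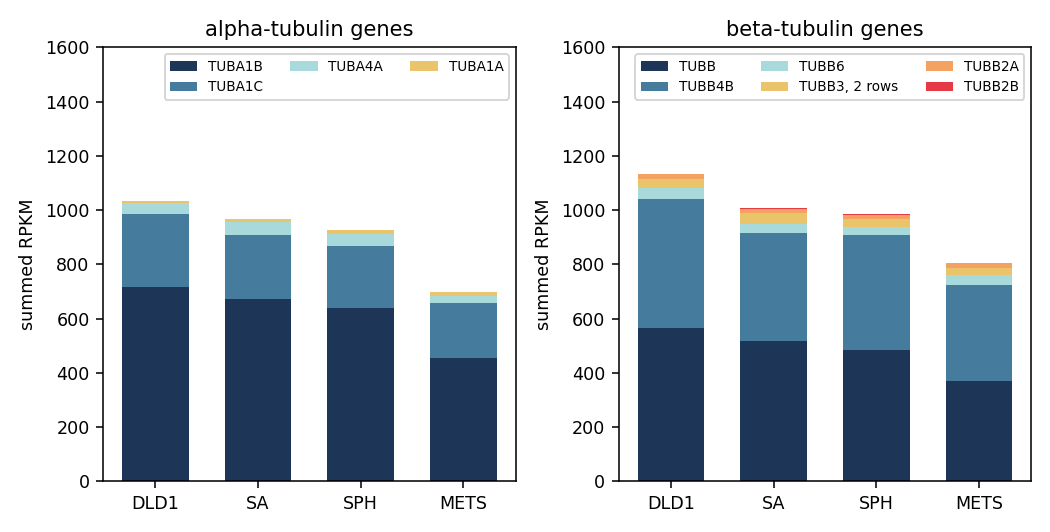
Stacked bars of summed RPKM for the alpha-tubulin genes (left) and the beta-tubulin genes (right) in the 4 lines, 1 library each, with segments for each gene above 1 RPKM. TUBA1B with TUBA1C and TUBB with TUBB4B fill nearly all of each bar, the bars of METS are the lowest (699 and 806 RPKM), and TUBB2B is a thin line at the top in SA and SPH.

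Proliferation markers were lower in METS as well. All 8 (MKI67, TOP2A, PCNA, MCM2, CCNB1, CDK1, AURKA and BUB1) were lowest in METS of the 4 lines, where 39.4% of 11262 genes were. The log2 difference from DLD1 was small for CDK1 (-0.03) and CCNB1 (-0.17). Over the 8 markers its median was -0.34, against -0.03 over all genes. Their summed level was 559 RPKM in DLD1, 574 in SA and 549 in SPH, with 445 in METS. In SA and SPH their median was 0.09. Their part in the lower tubulin levels of METS was not tested.

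The other tubulin genes were mostly at low levels. Of 12, 8 (TUBA3C, TUBA3D, TUBA3E, TUBA8, TUBAL3, TUBB1, TUBB4A and TUBB8) stayed under 1 RPKM in every line, the highest value being 0.14 for TUBB1 in SA and TUBB4A in METS. TUBB4B stood at 476 RPKM in DLD1, 396 in SA and 423 in SPH, with 357 in METS, highest in DLD1 and lowest in METS as TUBB was. The delta-tubulin and epsilon-tubulin genes, whose proteins act at centrioles, were highest in METS: TUBD1 at 2.60, 2.74, 2.48 and 3.25 RPKM, and TUBE1 at 2.73, 2.18, 2.30 and 3.39.

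Genes whose proteins fold, nucleate, modify, stabilise, sever and travel on microtubules were examined in the comparison of SA and SPH with DLD1 and METS. With limma-trend across all genes, 40 of 11262 genes (0.355%) passed an adjusted p of 0.05, 36 of them higher and 4 lower in the mesenchymal lines. That count was 1 without SA, 1 without SPH, 26 without METS and 288 without DLD1. Of 154 genes in the microtubule lists 120 could be tested, and 0 passed, with trend or without. At an unadjusted p under 0.05 there were 8 with limma-trend (3 higher and 5 lower) and 7 without trend, where 8.65% of all genes reached that level with trend. The median class difference over the lists was 0.03, against 0.04 over all genes. With 2 lines a class, the test measures the spread between lines that share an origin.

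The 21 genes of tubulin folding were all tested. Their median class difference was 0.00 and 0 reached an unadjusted p under 0.05 (limma-trend). The beta-tubulin cofactor TBCA stood at 33.0 RPKM in DLD1, 32.6 in SA and 36.4 in SPH, with 44.1 in METS, and was thus highest in the line with the least tubulin message. CCT8, a subunit of the chaperonin that folds tubulin and actin, stood at 101, 95.9, 92.5 and 106 RPKM, and the prefoldin subunit VBP1 at 20.7, 25.3, 25.6 and 25.9. The summed level of the list was between 1199 and 1224 RPKM in the 4 lines.

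Among 17 genes of the gamma-tubulin complex and nucleation, all tested, the median class difference was 0.05. TUBGCP2, a core subunit of the ring complex, stood at 13.9 RPKM in DLD1, 11.7 in SA and 13.6 in SPH, with 6.33 in METS. METS alone was low, and its log2 difference from DLD1 (-1.02) was the only one in the list past 2-fold, where 0.896% of 11275 genes were at least 2-fold lower. HAUS8, a subunit of the augmin complex that branches microtubules, stood at 7.07, 4.93, 4.49 and 6.40 RPKM, low in both mesenchymal lines (class difference -0.44, SE 0.11, limma-trend adjusted p = 0.37).

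Of 17 destabilising and severing genes 12 were tested, with a median class difference of 0.12. STMN1, which binds free tubulin dimers, stood at 37.6 RPKM in DLD1, 42.3 in SA and 42.7 in SPH, with 18.0 in METS. As with TUBGCP2, METS alone was low, with a log2 difference of -1.02 from DLD1. The class difference of STMN1 was 0.68 (SE 0.31, limma-trend adjusted p = 0.62). FIGNL1, a relative of the severing enzymes, stood at 4.54, 6.76, 6.71 and 5.69 RPKM (class difference 0.35, SE 0.13, limma-trend adjusted p = 0.55).

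KIFC3, a minus-end motor, stood at 10.3 RPKM in DLD1, 9.41 in SA and 11.5 in SPH, with 5.17 in METS, so METS alone was low here too. Leaving out DLD1 leaves METS as the single epithelial library, and the spread in that fit comes from SA and SPH alone. In it 3 of 119 list genes (STMN1, TUBGCP2 and KIFC3) passed with limma-trend, or 2.52%, against 2.59% of 11135 genes, which is near the background and no result about the lists. At an unadjusted p under 0.05 there were 21 list genes without DLD1 (17.6%, against 17.8% of all genes). With any other line left out 0 list genes passed, and the unadjusted counts were 5 without SA (4.17% against 5.95%), 1 without SPH (0.840% against 3.03%) and 6 without METS (5.00% against 8.07%).

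Of 32 stabilisers and plus-end proteins 23 were tested, with a median class difference of -0.02. MAPRE3, a protein of growing plus ends, stood at 6.61 RPKM in DLD1, 4.40 in SA and 5.29 in SPH, with 7.34 in METS (class difference -0.45, SE 0.13, limma-trend adjusted p = 0.40). MACF1, which links microtubules to actin, stood at 2.46, 3.30, 3.11 and 2.48 RPKM (0.28, SE 0.11, adjusted p = 0.57). CLIP2 stood at 2.77, 2.74, 4.53 and 1.26 RPKM, high in SPH and low in METS. Of 32 kinesin and dynein genes 28 were tested, with a median of 0.03, and 0 reached an unadjusted p under 0.05. DYNLT1, a dynein light chain, was highest in METS (19.3 RPKM against 12.2 to 13.4).

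Of 19 enzymes that modify tubulin tails or its acetylated lysine 12 were tested, with a median class difference of 0.08. AGTPBP1, which removes glutamates from tubulin, stood at 7.05 RPKM in DLD1, 6.28 in SA and 5.22 in SPH, with 9.53 in METS (class difference -0.45, SE 0.17, limma-trend adjusted p = 0.53). TTLL1, of the glutamylating enzymes, stood at 1.59, 1.71, 3.09 and 1.13 RPKM (0.50, SE 0.22, adjusted p = 0.61), and ATAT1, the tubulin acetyltransferase, at 2.83, 3.59, 3.57 and 3.01.

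Tubulin mRNAs are known to be degraded when free tubulin is abundant, through TTC5, which recognises tubulin as it leaves the ribosome, and the CCR4-NOT deadenylase. TTC5 stood at 1.47 RPKM in DLD1, 1.60 in SA and 1.76 in SPH, with 2.01 in METS. CNOT1, the scaffold of the deadenylase, stood at 21.3, 19.3, 18.0 and 26.7 RPKM (class difference -0.34, SE 0.14, limma-trend adjusted p = 0.57), and CNOT11 at 28.2, 28.6, 30.8 and 29.5. All 3 tested genes of this list were higher in METS than in DLD1 (median log2 difference 0.29), where 44.7% of all genes were. The list also holds SCAPER, which stayed under 1 RPKM and could not be tested. SCAPER was lower in METS (0.55 RPKM) than in DLD1 (0.69). The part of these genes in the tubulin levels was not tested.

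For the 4 rows with a range of at least 2-fold, the genes with the most similar profile were sought among 11664 genes, by the Euclidean distance between the 4 centred values of log2(RPKM + 1). With only 4 lines such a likeness is a description. Among the nearest to TUBB2B were TGM2 (distance 0.24) and MSN (0.30). Nearest to TUBA1A were the read-through locus SYS1-DBNDD2 (0.28), CPT1A (0.29) and NEO1 (0.32). CPT1A stood at 3.57 RPKM in DLD1, 8.54 in SA and 12.4 in SPH, with 8.20 in METS.

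Nearest to TUBB3_1 were TSPAN1 (0.19), ELF3 (0.43) and TRAPPC6A (0.43), all highest in METS and lowest in SA. TSPAN1 stood at 28.4 RPKM in DLD1, 16.0 in SA and 31.4 in SPH, with 54.3 in METS. Nearest to TUBB3_2 were ANKRD1 (0.17), TNFSF13 (0.18) and S100A2 (0.23), all highest in SA and lowest in METS. ANKRD1 stood at 5.29, 6.89, 4.99 and 2.25 RPKM.

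The sequence before the start site was read for the members from RefSeq (GRCh38.p14), where all 10 have an entry. The 250 bases before the start are shown for TUBB2B and TUBB2A, the near-identical copies whose levels differed between the classes in opposite directions, and for TUBA1A, the member low in DLD1 alone. Capitals mark matches to CCAAT or its complement ATTGG and to TATAAA or its complement TTTATA.
TUBB2B, chr6:3227654-3227903, minus strand: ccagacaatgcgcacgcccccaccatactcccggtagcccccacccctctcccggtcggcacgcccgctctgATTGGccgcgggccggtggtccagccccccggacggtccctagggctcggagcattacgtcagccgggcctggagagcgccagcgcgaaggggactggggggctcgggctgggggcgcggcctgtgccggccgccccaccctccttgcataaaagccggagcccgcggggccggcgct
TUBB2A, chr6:3157545-3157794, minus strand: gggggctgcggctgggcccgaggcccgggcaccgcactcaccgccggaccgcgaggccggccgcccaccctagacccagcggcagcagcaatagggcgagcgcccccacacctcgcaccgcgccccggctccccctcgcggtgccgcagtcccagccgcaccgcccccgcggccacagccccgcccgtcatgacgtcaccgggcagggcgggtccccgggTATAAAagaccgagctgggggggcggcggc
TUBA1A, chr12:49189081-49189330, minus strand: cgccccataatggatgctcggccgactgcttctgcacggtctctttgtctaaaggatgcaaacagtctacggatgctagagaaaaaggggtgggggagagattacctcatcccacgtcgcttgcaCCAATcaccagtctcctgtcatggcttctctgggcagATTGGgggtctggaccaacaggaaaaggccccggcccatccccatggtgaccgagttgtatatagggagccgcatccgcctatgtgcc

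Unlike their coding sequences, the upstream windows of TUBB2A and TUBB2B were only 48.0% identical, and those of TUBA1A and TUBA1B 47.2%. TUBB2B holds 1 CCAAT match, TUBA1A 2 and TUBB2A none, and 32.0% of the 35116 windows of this length in the table hold it on either strand. TUBB2A alone of the members holds TATAAA, which 10.7% of windows hold. CACCTG and its complement CAGGTG, the E-box letters that repressors of epithelial genes such as SNAI and ZEB proteins are known to bind, occur in 17.5% of windows. Among the members TUBA4A alone has them, 1 time. A match of letters is a description and shows no binding, and its absence says only that the letters are not in that window.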

How the data were processed

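RNA-seq libraries of DLD1, SA, SPH and METS (1 each) were grouped by the lines and classes in the labels. The authors deposited 1 table of values per gene, read here from the values as RPKM with 2 decimals: they are not whole, and multiplied by GENCODE 29 gene length in kb they added up to 913210 to 924096 per line (34023 genes). The build named is hg19, per the submitters' processing notes, while aligner, counter, annotation and use of strand were not given in the sources used here. 0 columns were without a sample.

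Values were used as log2(RPKM + 1). Pairs of lines were described by a 2-fold rule over genes of at least 1 RPKM in the higher library. For the classes, genes reaching 1 RPKM in 2 or more libraries were fitted with limma-trend (version 3.58.1 under R 4.3.3), p-values were adjusted by Benjamini-Hochberg, and the procedure was tested on simulated data. Depth was estimated from the steps between low values of genes of 150 to 600 bases, by a procedure set after the table was seen, and reads per gene are approximate because the lengths are not from the authors' annotation. Named genes were the members, other tubulins, genes passing the class comparison, the 4 largest class differences per list and the 3 nearest profiles. A few items that this rule names are not reported here. The members and lists were chosen with earlier results of these data known. Sequences came from GENCODE 29 transcripts and RefSeq (GRCh38.p14). Analyses used Python 3.11.15 with pandas 2.3.3 and scipy 1.17.1. Alternatives changed the pseudocount, the scaling, the filter, the fold rule, the trend and the libraries used.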

Additional observations from a re-analysis of the deposited data

How the results depend on the processing

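Each line has 1 library, so no difference between lines can be set against the spread between cultures, and counting error is the only error that was estimated. The 33 member differences from DLD1 were counted again by the 2-fold rule under other pseudocounts and scaling. A change of pseudocount cannot reverse the sign of a difference, so no count of reversals is read. With a pseudocount of 5, 5 were no longer past 2-fold: TUBB2B in SA and SPH (0.60 and 0.73) and TUBA1A in SA, SPH and METS (0.79, 0.95 and 0.83), which left 0 member rows past 2-fold. With a pseudocount of 0.1, TUBB3_1 in SA also passed (-1.04). Median-of-ratios scaling moved no member across 2-fold. Of all genes, the number past 2-fold in SA, SPH and METS (77, 144 and 160) was 211, 350 and 368 when the pseudocount was 0.1, 12, 24 and 31 when it was 5, 29, 61 and 88 with a minimum of 5 RPKM, and 9, 13 and 14 by a 4-fold rule. The class comparison (40 genes, limma-trend) gave 26 with a pseudocount of 0.1, 5 with a minimum of 5 RPKM, and 0 without a filter, where 24097 genes were tested and 2208 had an unadjusted p under 0.05. Leaving out 1 library gave 1 to 288 genes (1 without SA, 1 without SPH, 26 without METS and 288 without DLD1), and 0 to 3 microtubule genes. The TUBB2B share of the beta sum (0.0458%, 0.331%, 0.421% and 0.0322% in DLD1, SA, SPH and METS) was 0.0789%, 0.546%, 0.738% and 0.0579% when only the chosen beta-tubulins were summed. For the sum of TUBB2A and TUBB2B the share was 1.72%, 1.92%, 1.87% and 2.26%, which no longer separates the mesenchymal lines from the epithelial ones.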
